A study of Mus musculus with 4 samples.

Results

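Immediate early and heat shock genes were read in cultured mouse gonocytes as 32 named genes, chosen by symbol and not by their values. The array annotation assigned 58 of the 45037 probe sets (sets of array probes designed for 1 transcript each) to 1 of these genes alone, and 54 of the 58 had a mean signal above the filter on low values (a signal of 15.5 over the 4 arrays). Each gene was read from its brightest probe set, and all 32 were above the filter signal on every array, so no gene entered only through the group in which it was high. The genes were taken in 5 groups by role: 8 genes of the AP-1 family, 8 other early transcription factors, 4 other early response proteins, 3 phosphatases of mitogen-activated protein kinases (MAPK), and 9 heat shock and stress proteins.

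Gonocytes, the male germ cells of the newborn testis, came from mice at 2 days post partum. Magnetic beads against THY1, a surface protein, were used to enrich them. For 8 h they were cultured in the absence of serum, growth factors and feeders, either with ethanol, called vehicle here, or with 100 nM RA (retinoic acid), which derives from vitamin A and pushes germ cells to differentiate. No untreated or uncultured cells are analysed here, so both groups share the sort and the culture. There were 2 arrays per group, called vehicle 1, vehicle 2, RA 1 and RA 2 after their labels. Neither strain, number of animals nor separate cultures are named in the labels. The p-values therefore cover the spread between these arrays alone, and that spread may be technical.

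Immediate early genes are transcribed within minutes of a signal such as a growth factor, adhesion loss or tissue dissociation, from promoters that are already poised, and need no new protein synthesis. Their products include the FOS and JUN proteins, which pair to form the transcription factor AP-1, and proteins that end the response, such as MAPK phosphatases and the mRNA-degrading factor ZFP36. Heat shock genes encode chaperones, which keep proteins folded, and are switched on by heat shock factors when unfolded proteins accumulate. Cell sorting and culture are known to induce members of both classes.

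Known RA response genes were read first, as a check of the treatment labels. Rarb, an RA receptor gene, had a signal of 14.9 on vehicle 1, 6.56 on vehicle 2, 95.4 on RA 1 and 90.5 on RA 2, and in Stra8, Cyp26a1 and Dhrs3 too each RA array exceeded each vehicle array. All 13 germ cell markers with a probe set were above the filter, and their summed signal was 10137 and 10058 under vehicle against 9232 and 9321 under RA. Of the 13, 11 had a negative log2 change, RA minus vehicle, and the median was −0.28. Ret was at 514 and 562 under vehicle against 254 and 277 under RA, Zbtb16 at 701 and 699 against 368 and 174, and Sall4, a large part of the sum, at 2268 and 2530.4 against 2311 and 3776. Markers of other testis cells were detected as well. All 8 stromal markers were above the filter, and 8 of 10 Sertoli markers (Amh and Fshr were below it), 6 of 8 macrophage and leukocyte markers (C1qa and C1qc were below it) and 6 of 6 mast cell markers. In bulk samples, fewer cells of a type and less RNA per cell cannot be told apart.

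Every role group was measurable in serum-free culture without RA, and none of the 32 genes passed the test for a difference with RA. Of the 32 genes, 27 had a positive and 5 a negative log2 change, RA minus vehicle, with a median of 0.18, where 52.9% of all 13011 genes above the filter had a positive change and their median was 0.015. With all arrays set to equal medians, 29 of the 32 and 65.6% of all genes were positive. The RA arrays both exceeded the vehicle arrays in 7 members (Fosl2, Egr1, Klf4, Myc, Zfp36, Dusp4 and Hspb1), where 14.1% of all genes did so, and both lay below them in 2 (Egr3 and Dusp6), where 12.6% did so. In limma, 0 of the 32 passed at a Benjamini-Hochberg adjusted p under 0.05 over all 27022 probe sets tested (0.00% of probe sets called), and every member had an adjusted p of 1. The RA response genes Rarb, Cyp26a1, Stra8 and Dhrs3 did not pass in limma either (adjusted p 0.21 to 0.39). Their log2 changes lay between 2.41 and 3.35. A member that did not pass is therefore not shown to be unchanged. At an unadjusted p under 0.05 there was 1 member, Dusp4, where 2.71% of all genes met that threshold. Over probe sets there were 2 of the 54, those of Dusp4 and a dimmer one of Hspb1, where 2.75% of all probe sets did. The log2 change was smaller than its own standard error in 20 of the 32.

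**Figure D1:**
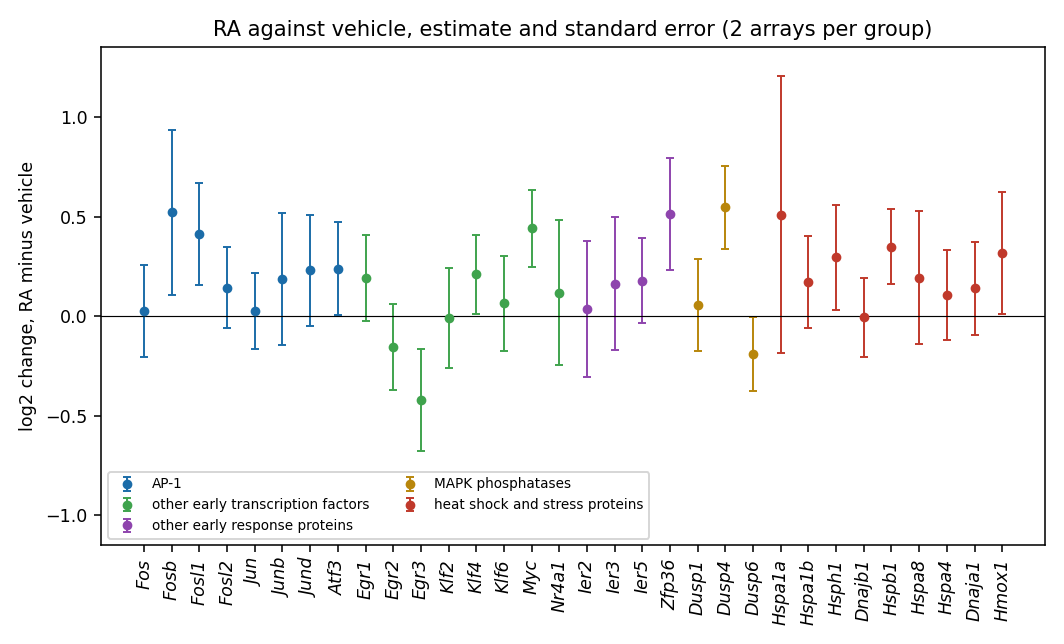
Log2 change of each of the 32 genes, RA minus vehicle, on the log2(signal + 5) scale, with points for the estimate and bars for the standard error (limma, 2 arrays per group), coloured by role. The estimates lie between −0.42 for Egr3 and 0.55 for Dusp4, and the widest bar, 0.70, belongs to Hspa1a.

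The 2 RA arrays were high for different members. RA 1 was the highest of the 4 arrays in 15 members and RA 2 in 13, where among all genes RA 1 was highest in 31.6% and RA 2 in 26.8%. Vehicle 1 was highest in 3 members (21.2% of all genes) and vehicle 2 in 1 (20.4% of all genes). RA 1 was highest for 7 of 8 AP-1 genes and 3 of 4 other early response genes, and RA 2 for 5 of 9 heat shock genes. RA 2 also had the largest maximum signal of the 4 arrays. Quantile normalization, which gives all arrays the same distribution of values, lowered the log2 change of each of these 5 genes. It went from 0.30 to 0.18 for Hsph1, 0.19 to −0.0045 for Hspa8 and 0.10 to 0.031 for Hspa4. For Dnaja1 it went from 0.14 to 0.052, and for Hmox1 from 0.32 to 0.27. The fall was not particular to them. Among heat shock genes not highest on RA 2, Hspa1b went from 0.172 to 0.151 and Hspb1 from 0.350 to 0.345. Dnajb1 went from −0.0056 to −0.018, while Hspa1a rose from 0.51 to 0.53. The median of all 32 members went from 0.18 to 0.125. The part of array scale and brightness in the split between RA 1 and RA 2 was not tested. Against the vehicle mean, 11 members were higher on both RA arrays, 4 were lower on both, 8 were higher on RA 1 and lower on RA 2, and 9 were lower on RA 1 and higher on RA 2. Without RA 1 the log2 change was positive in 20 of the 32 members (49.0% of all genes), with a median of 0.10, and without RA 2 in 19 (54.3% of all genes), with a median of 0.17. Leaving out vehicle 1 gave 25 positive members (55.5% of all genes), and leaving out vehicle 2 gave 26 (47.3% of all genes). For the early genes without MAPK phosphatases, 17 of 20 were positive with all arrays, 11 of 20 without RA 1 and 14 of 20 without RA 2. For heat shock genes the counts were 8 of 9 with all arrays, 7 of 9 without RA 1 and 4 of 9 without RA 2.

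**Figure D2:**
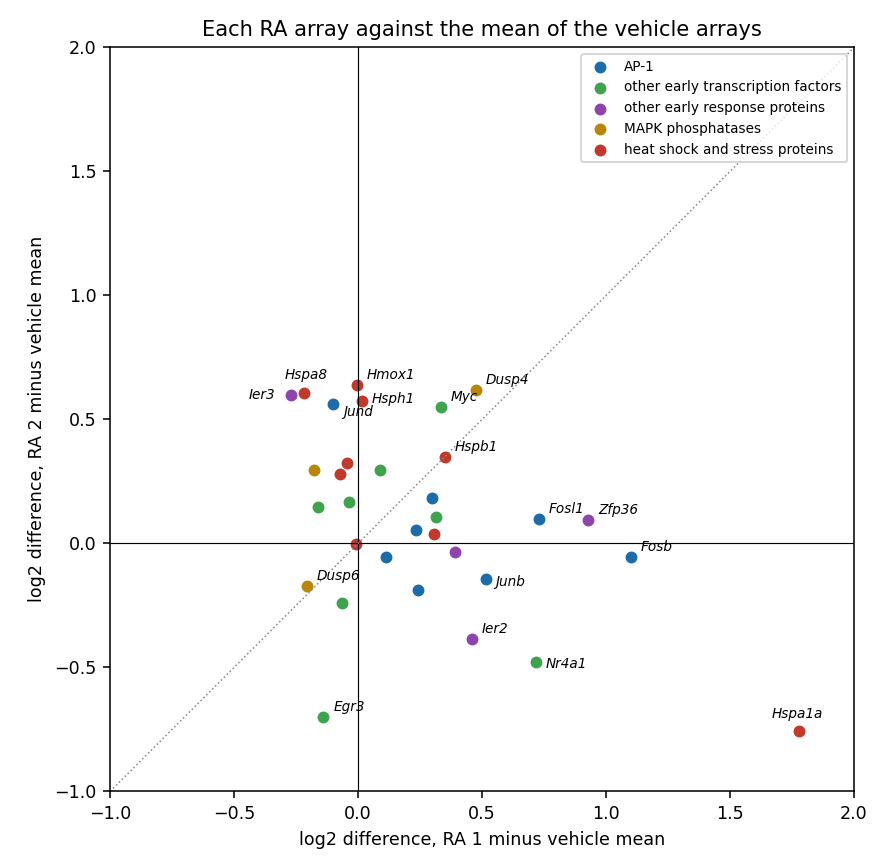
Each of the 32 genes by the log2 difference of RA 1 (horizontal axis) and of RA 2 (vertical axis) from the mean of the vehicle arrays, which both axes share, on the log2(signal + 5) scale. Hspa1a (1.78 on RA 1, −0.76 on RA 2) and Fosb (1.10 and −0.056) lie far to the right and below 0, Hspa8 (−0.22 and 0.61) and Ier3 (−0.27 and 0.60) to the left and high, and Myc, Dusp4 and Hspb1 above 0 on both axes.

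With 5 added to each signal, RA 1 was at least 1.5 times every other array in 5 members. They were Fosb, Fosl1, Nr4a1, Zfp36 and Hspa1a, and 1.40% of all genes met this rule. The rule was chosen after these values were seen, and the count is a description. The 3' to 5' signal ratio of the control transcript Actb, a sign of RNA and amplification quality, was 1.72 on vehicle 1, 1.73 on vehicle 2, 2.08 on RA 1 and 2.32 on RA 2. That of Gapdh was 1.56, 1.47, 1.85 and 2.00 in the same order. These ratios were higher on both RA arrays than on both vehicle arrays, and highest on RA 2. The other control transcripts did not separate the groups, with ratios, again in that order, of 11.5, 9.57, 14.7 and 9.59 for Tfrc and of 31.9, 9.12, 13.4 and 18.6 for Pcx. The part of these ratios in the members' values was not tested.

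The AP-1 family gave positive log2 changes in 8 of 8 genes (52.9% of all genes), with a median of 0.21. Both RA arrays exceeded both vehicle arrays in Fosl2 alone (14.1% of all genes). In 3 of the 8 the change was larger than its standard error. Without RA 1 the changes were negative for Fos, Fosb, Jun and Junb, and without RA 2 for Jund. Fos, the prototype of the family and a partner of the JUN proteins, gave 1109 and 929 under vehicle against 1201 and 890.4 under RA. RA 1 was the highest and RA 2 the lowest array, and the log2 change was 0.027 ± 0.23 (SE, n = 2 per group). Jun, its main partner, had vehicle signals of 589 and 571 and RA signals of 627 and 558. The arrays took the same order of RA 1 highest and RA 2 lowest, with a log2 change of 0.027 ± 0.19, and a second probe set gave 0.27 ± 0.23.

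Fosb, a FOS paralogue, showed the largest AP-1 estimate and the least even replicates. Its signal was 46.1 on vehicle 1, 69.7 on vehicle 2, 127 on RA 1 and 54.4 on RA 2. Only RA 1 was above both vehicle arrays, and the log2 change of 0.52 ± 0.41 became −0.056 without RA 1 and 1.10 without RA 2. Fosl1, another FOS relative that is itself an AP-1 target, was at 219.9 on vehicle 1, 189.6 on vehicle 2, 342 on RA 1 and 219 on RA 2. RA 2 lay between the vehicle arrays, and the log2 change was 0.41 ± 0.26, or 0.10 without RA 1 and 0.73 without RA 2. Its dimmer probe set gave 0.20 ± 0.34, with the vehicle 1 and RA 2 signals near each other (34.5 and 34.6).

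Fosl2, which forms AP-1 in many resting cells, read 999 and 1033 in the vehicle cultures, and 1194 and 1056 in the RA cultures. Both RA arrays were higher, by a log2 change of 0.14 ± 0.20, which is below its standard error, and a dimmer probe set gave −0.21 ± 0.35. Junb, which often restrains JUN activity, had a signal of 25.8 on vehicle 1, 25.8 on vehicle 2, 38.9 on RA 1 and 22.9 on RA 2, values close to the filter signal. Jund, the JUN protein typical of unstimulated cells, gave 1598 and 1872 under vehicle against 1613 and 2557 under RA. Here RA 2 was highest and RA 1 close to vehicle 1, and the log2 change was 0.23 ± 0.28. Atf3, a stress-induced factor that can pair with JUN, had vehicle signals of 221 and 323 and RA signals of 329 and 304. Vehicle 1 stood below the other 3 arrays, and without it the log2 change went from 0.24 ± 0.23 to −0.027.

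**Figure D3:**
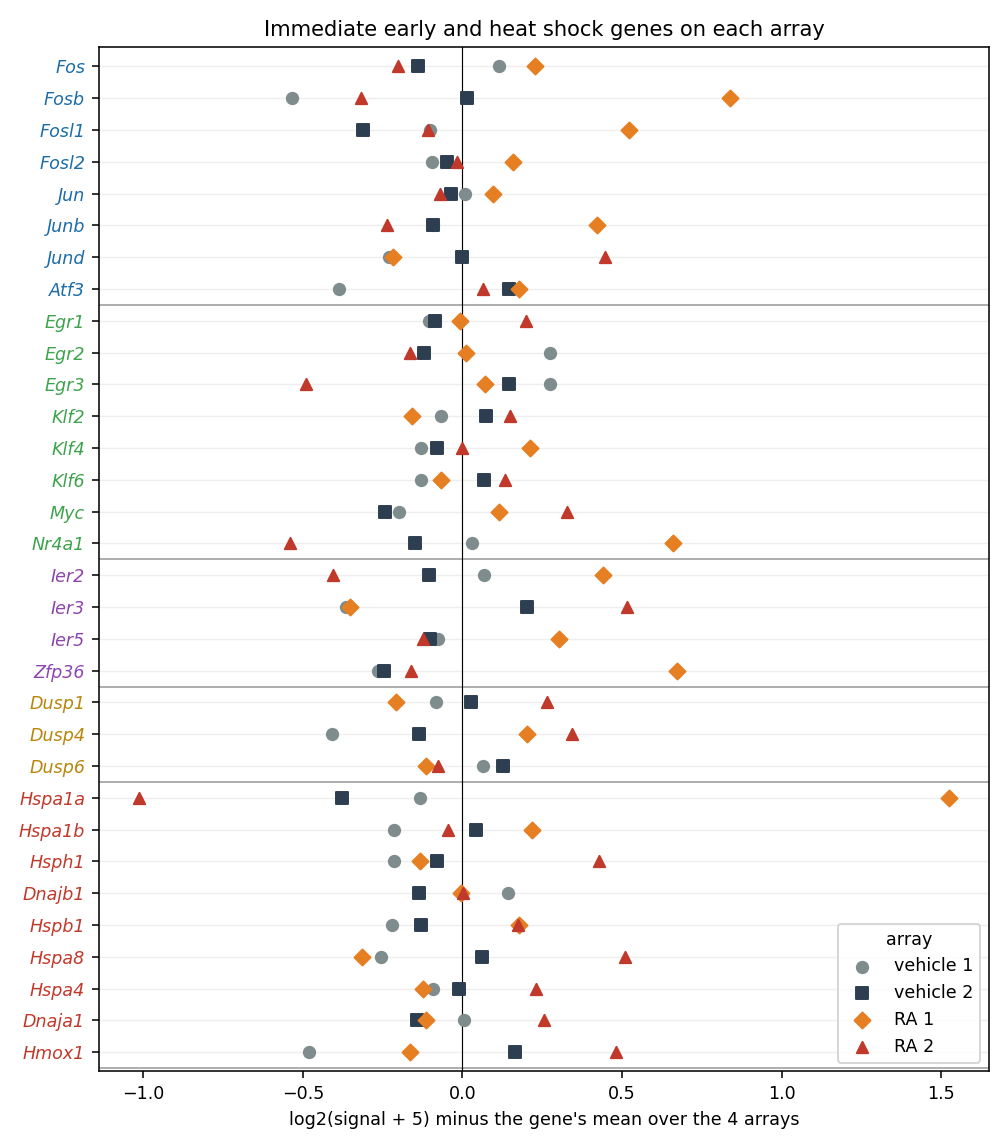
Signal of each of the 32 genes on each array, as log2(signal + 5) minus the gene's own mean over the 4 arrays, with 1 symbol per array and gene names coloured by role. RA 1 (orange diamonds) lies at the right for most AP-1 genes and far out for Hspa1a, while RA 2 (red triangles) lies at the right for Jund, Ier3, Hspa8, Hsph1, Hspa4 and Dnaja1.

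Other early transcription factors were positive in 5 of 8 genes, with a median log2 change of 0.092. Myc, a regulator of growth and ribosome production, had the largest log2 change of them. It was at 442 on vehicle 1, 429 on vehicle 2, 551 on RA 1 and 640 on RA 2, so that the groups did not overlap. The log2 change was 0.44 ± 0.19, a 1.36-fold higher level (limma, adjusted p = 1 over all probe sets), and lay between 0.34 and 0.55 with 1 array left out. Klf4, a zinc finger factor of epithelial and pluripotent cells, read 762 and 791 in the vehicle cultures, and 968 and 835 in the RA cultures. Both RA arrays were higher on both of its probe sets, with log2 changes of 0.21 ± 0.20 and 0.28 ± 0.20.

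The 3 EGR genes, zinc finger factors induced through serum response factor, differed among themselves. Egr1 had a signal of 1516 on vehicle 1, 1538 on vehicle 2, 1625 on RA 1 and 1877 on RA 2, a log2 change of 0.19 ± 0.22 with separated groups. Egr2 gave 587 and 445 under vehicle against 487 and 431 under RA. Its groups overlapped, with changes of −0.15 ± 0.21 and −0.16 ± 0.23 on its 2 probe sets, and without vehicle 1 the estimate was 0.044. Egr3 was lower on both RA arrays, at 156 and 104 against 180.1 and 164 with vehicle, with the largest negative estimate among the members (−0.42 ± 0.26), which was −0.14 without RA 2 and −0.70 without RA 1.

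Nr4a1, an orphan nuclear receptor induced by many stimuli, had vehicle signals of 202 and 178 and RA signals of 315 and 134. The vehicle arrays lay between the 2 RA arrays, so the log2 change of 0.12 ± 0.36 averaged a high and a low value, 0.72 without RA 2 and −0.48 without RA 1. Klf2, a factor known from endothelial and T cells, gave 92.1 and 102 under vehicle against 86.1 and 108 under RA. Its log2 change was −0.008 ± 0.25, and its sign turned with quantile normalization and with equal array medians. Klf6, a widely expressed relative, was at 2127 and 2440.2 under vehicle against 2223 and 2558 under RA, so the array numbered 2 was the higher in each group, as for Klf2. The log2 change was 0.065 ± 0.24 (−0.039 with quantile normalization), while its other 4 probe sets ranged from −0.49 to 0.10.

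Other early response proteins were positive in 4 of 4 genes, with a median log2 change of 0.17. Zfp36 encodes tristetraprolin, which binds AU-rich elements and shortens the life of cytokine and early gene mRNAs. It was at 306 on vehicle 1, 309.8 on vehicle 2, 591 on RA 1 and 329 on RA 2. RA 2 was only just above the vehicle arrays, and the log2 change of 0.51 ± 0.28 was 0.095 without RA 1 and 0.93 without RA 2. Ier2, a nuclear protein of early growth responses, read 67.5 and 59.3 in the vehicle cultures, and 88.9 and 47.2 in the RA cultures, again with RA 1 highest and RA 2 lowest. Ier5, which can act on heat shock factor 1, was also highest on RA 1, at 556 against 426 and 419 with vehicle and 412 on RA 2, with a second probe set at −0.24 ± 0.30. Ier3, a regulator of cell survival, took another course, with a signal of 1105 on vehicle 1, 1639 on vehicle 2, 1116 on RA 1 and 2039 on RA 2. The arrays numbered 2 were the high ones in both groups, and the log2 change was 0.16 ± 0.33.

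The promoters of 3 of the genes highest on RA 1 are shown. They are the early genes that met the rule of 1.5 times every other array on signal + 5 and have a sequence available. Fosl1 met it too but has no sequence and is named only. Each window holds the 250 bases before the gene's start (RefSeq, GRCm38.p6), at chr7:19310046-19310295 on the minus strand for Fosb, chr15:101266596-101266845 on the plus strand for Nr4a1 and chr7:28379229-28379478 on the minus strand for Zfp36. Capitals mark matches on either strand to the CRE half-site TGACG, the EGR site GCGNGGGCG or the CArG box, which serum response factor binds.
Fosb: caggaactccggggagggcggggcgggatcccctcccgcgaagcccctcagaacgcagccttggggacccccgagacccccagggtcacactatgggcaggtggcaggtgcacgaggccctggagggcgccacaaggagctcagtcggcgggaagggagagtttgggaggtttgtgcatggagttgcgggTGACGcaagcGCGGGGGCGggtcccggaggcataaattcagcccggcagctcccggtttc
Nr4a1: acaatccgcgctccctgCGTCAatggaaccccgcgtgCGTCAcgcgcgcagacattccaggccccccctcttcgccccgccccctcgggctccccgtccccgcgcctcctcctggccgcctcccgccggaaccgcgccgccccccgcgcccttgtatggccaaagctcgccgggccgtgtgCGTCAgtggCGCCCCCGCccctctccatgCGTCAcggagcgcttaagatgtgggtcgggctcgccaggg
Zfp36: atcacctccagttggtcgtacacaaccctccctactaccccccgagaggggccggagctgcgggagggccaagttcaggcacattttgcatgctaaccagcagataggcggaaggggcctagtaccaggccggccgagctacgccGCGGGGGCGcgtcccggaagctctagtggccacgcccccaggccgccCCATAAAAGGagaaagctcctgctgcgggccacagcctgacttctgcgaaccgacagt
Fosb held 1 CRE half-site and 1 EGR site, Nr4a1 held 4 CRE half-sites and 1 EGR site, and Zfp36 held 1 EGR site and 1 CArG box.

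Windows of 300 bases (250 before to 50 after the start) were found for 24 of the 32 members, 32 windows in all, since Egr2, Dnaja1, Dnajb1 and Hsph1 have several, and those of 1 gene can overlap. The CRE half-site was in 15 of the 32 windows, from 13 genes, and in 20.8% of all 32851 windows in the table. The EGR site was in 9 windows, from 7 genes, 6 of them early genes, against 5.55% of all windows. The CArG box was in 5 windows, from Egr2 and Zfp36, against 1.63%. The full CRE TGACGTCA was in 1 window, that of Dusp1, against 1.79%, and contains the half-site. The AP-1 site TGANTCA was in 0 of 32 against 7.81%, and retinoic acid response elements of the DR5 and DR2 types were in 0 of 32 against 0.323% and 0.472%. The TATA box TATAAA was in 2 windows, those of Fos and Junb, against 13.6%. These are matches of letters in short windows, and binding was not measured.

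The MAPK phosphatases, which switch off the kinases ERK, JNK and p38, had estimates of both signs, and 2 of 3 separated the groups in either direction (26.8% of all genes). Dusp4, a nuclear phosphatase of ERK and JNK, had a signal of 181 on vehicle 1, 219 on vehicle 2, 279 on RA 1 and 308 on RA 2. Both RA arrays were higher, by a log2 change of 0.55 ± 0.21, a 1.46-fold higher level, which lay between 0.41 and 0.68 with 1 array left out and did not pass (limma, adjusted p = 1 over all probe sets). Dusp6, a cytoplasmic phosphatase specific for ERK that ERK signalling itself induces, gave 596 and 622 under vehicle against 526 and 539 under RA. Both RA arrays were lower, by a log2 change of −0.19 ± 0.19, 1.14-fold, between −0.22 and −0.16 with 1 array left out. Dusp1, which acts mainly on p38 and JNK and is induced by stress and glucocorticoids, had vehicle signals of 998 and 1079 and RA signals of 916 and 1274. The RA arrays were the highest and the lowest of the 4, and the log2 change was 0.057 ± 0.23.

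Heat shock and stress genes were positive in 8 of 9 genes, with a median log2 change of 0.19 that became −0.0063 without RA 2 and 0.32 without RA 1. With each gene read by the average over its probe sets it was 0.32 as well, again with 8 of 9 positive, while 14 of the 20 early genes were positive in place of 17 (48.7% of all genes). The inducible HSP70 genes Hspa1a and Hspa1b lie near each other on chromosome 17 and encode near-identical proteins, so their probe sets may detect both transcripts and their signals are uncertain as single genes. Hspa1a was at 56.4 on vehicle 1, 46.8 on vehicle 2, 188 on RA 1 and 28.3 on RA 2. With 5 added to each signal, RA 1 was 3.15 times the next highest array. RA 2 was the lowest, so the log2 change of 0.51 ± 0.70 was 1.78 without RA 2 and −0.76 without RA 1. Without RA 2 it was the only member to pass (limma, adjusted p = 0.00855; 0.563% of probe sets called), with 1 RA array in the fit. Hspa1b was read by 3 probe sets, all highest on RA 1, with signals of 605 against 236 to 294 on the other arrays for the first, 799 against 317 to 402 for the second and 2001 against 1482 to 1771 for the brightest. Their log2 changes were 0.62 ± 0.35, 0.34 ± 0.38 and 0.17 ± 0.23.

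**Figure D4:**
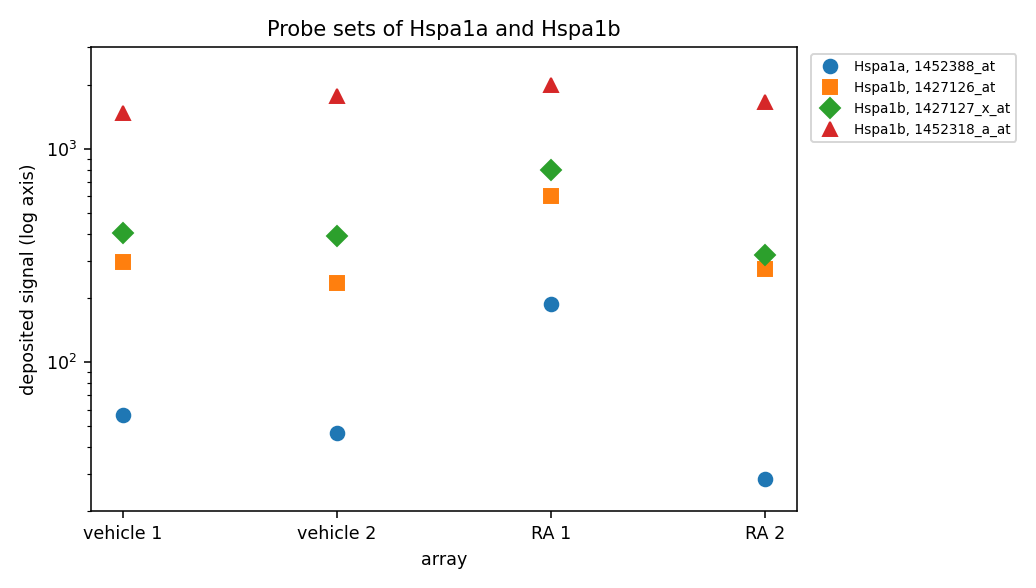
Deposited signal (log axis) of the probe sets of Hspa1a and Hspa1b on each array, with 1 symbol per probe set. All 4 are highest on RA 1, the Hspa1a probe set by the widest margin (188 against 28.3 to 56.4) and the brightest Hspa1b probe set by the narrowest (2001 against 1482 to 1771).

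The start-proximal promoters of this pair and of Hspb1 are given to show how alike the HSP70 copies are and where heat shock elements lie, at chr17:34972157-34972406 on the minus strand for Hspa1a, chr17:34959239-34959488 on the minus strand for Hspa1b and chr5:135887669-135887918 on the plus strand for Hspb1 (250 bases before the start, RefSeq, GRCm38.p6). Capitals mark the heat shock element of 2 units, GAANNTTC or TTCNNGAA, and the CRE half-site TGACG, on either strand.
Hspa1a: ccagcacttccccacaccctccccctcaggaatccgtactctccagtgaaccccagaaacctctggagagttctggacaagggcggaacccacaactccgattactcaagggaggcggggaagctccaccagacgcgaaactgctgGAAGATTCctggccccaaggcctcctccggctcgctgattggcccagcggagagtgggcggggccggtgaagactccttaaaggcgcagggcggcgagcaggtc
Hspa1b: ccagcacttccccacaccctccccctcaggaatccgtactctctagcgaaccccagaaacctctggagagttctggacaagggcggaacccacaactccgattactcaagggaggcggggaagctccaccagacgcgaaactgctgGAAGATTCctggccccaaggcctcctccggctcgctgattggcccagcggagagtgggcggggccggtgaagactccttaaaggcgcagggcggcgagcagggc
Hspb1: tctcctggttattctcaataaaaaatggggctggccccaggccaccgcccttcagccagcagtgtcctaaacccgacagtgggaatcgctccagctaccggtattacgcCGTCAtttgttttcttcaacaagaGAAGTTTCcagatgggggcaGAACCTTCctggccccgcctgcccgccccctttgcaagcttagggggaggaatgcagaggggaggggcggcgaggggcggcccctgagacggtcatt
The Hspa1a and Hspa1b windows were identical at 247 of these 250 positions and held the same heat shock element, GAAGATTC, 104 bases before the start. Hspb1 held 2 such elements, GAAGTTTC and GAACCTTC, and 1 CRE half-site. In the 300-base windows the element of 2 units was in 9 of the 32 member windows, from 8 genes, 5 of them heat shock genes, and in 15.1% of all windows. The element of 3 units in a row, which contains the shorter one, was in 2 windows of Hsph1 and in 0.603% of all windows.

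Hspb1, a small heat shock protein that holds unfolded proteins and binds actin, was the most even of the heat shock genes. It read 658 and 701 in the vehicle cultures, and 868 and 866 in the RA cultures. The groups did not overlap, and the log2 change of 0.35 ± 0.19, a 1.27-fold higher level, stayed between 0.31 and 0.39 with 1 array left out. Its second probe set, of a type that can also detect similar transcripts, at 278 on each vehicle array, 411 on RA 1 and 423 on RA 2, gave 0.58 ± 0.19, and neither passed (limma, adjusted p = 1 over all probe sets). Related small heat shock genes that are no members differed. Cryab was lower on both RA arrays (12.6% of all genes), at 648 and 769 against 891 and 1191, a log2 change of −0.54 ± 0.23. Hspb8 was at 626 and 857 under RA against 478 and 686 under vehicle, with overlapping groups (0.35 ± 0.25). Hspb6 and Hspb2 stood at −0.11 ± 0.25 and −0.082 ± 0.34.

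Of the other 5 chaperone genes, 4 were highest on RA 2. Hspa8, the constitutive HSP70 that folds new proteins, had a signal of 2821 on vehicle 1, 3519 on vehicle 2, 2709 on RA 1 and 4798 on RA 2. RA 2 was the highest and RA 1 the lowest array, and the log2 change of 0.19 ± 0.33 was −0.22 without RA 2 and −0.0045 with quantile normalization. Hsph1, an HSP110 that helps HSP70 exchange nucleotide, gave 1710 and 1877 under vehicle against 1810.5 and 2671 under RA, a log2 change of 0.30 ± 0.26. A dimmer Hsph1 probe set, at 316 and 217 against 410.3 and 332, separated the groups at 0.49 ± 0.24.

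Hspa4, another HSP110 relative, had vehicle signals of 1338 and 1415 and RA signals of 1309 and 1673. Its probe sets disagreed, with log2 changes of 0.10 ± 0.23 on the brightest and −0.31 ± 0.19 on one where both RA arrays were lower. Dnaja1, a J-domain protein that delivers clients to HSP70, was at 1549 and 1399 under vehicle against 1427 and 1845 under RA, with a log2 change of 0.14 ± 0.23 by its brightest probe set, and −0.071 and 0.035 by the others. Dnajb1, the J-domain protein most induced by heat, was at 568 on vehicle 1, 467 on vehicle 2, 512 on RA 1 and 514 on RA 2, and its log2 change of −0.0056 ± 0.20 turned positive with equal array medians (0.071).

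Hmox1, haem oxygenase, breaks down haem and is induced by oxidative stress and in macrophages that take up red cells. It read 841 and 1316 in the vehicle cultures, and 1047 and 1641 in the RA cultures. In each group the array numbered 2 was the higher, and the log2 change of 0.32 ± 0.30 became −0.0063 without RA 2 and −0.005 without vehicle 1. The summed signal of 8 macrophage and leukocyte markers was 828 on vehicle 1, 1695 on vehicle 2, 642 on RA 1 and 1375 on RA 2. That of 6 mast cell markers was 3366, 7266, 2169 and 6640 in the same order. The Sertoli markers summed to 3067, 3937, 3424 and 4376, the Leydig markers to 1374, 2495, 1509 and 1978, and the stromal and peritubular markers to 9561, 12255, 10051 and 13531. All 5 sums were higher on the array numbered 2 in each group. A sum is weighted to its brightest genes, and single markers differed. In the same order, the Sertoli markers Sox9 (446, 424, 620 and 534) and Wt1 (238, 207, 353 and 308) were higher on the arrays numbered 1. Clu, the brightest Sertoli marker, was at 1744, 2319, 1672 and 2666. Of the Leydig markers, Star was at 467 on RA 1 and 443 on RA 2, and Cyp11a1 at 660 and 1156. Members higher on the array numbered 2 in each group were Hmox1, Ier3, Jund, Egr1, Klf2, Klf6, Dusp1, Dusp4, Dusp6, Hsph1, Hspa8 and Hspa4. The share of all genes with that order was not computed. Endothelial markers, 6 of 6 above the filter, summed to 229 on vehicle 1, 195 on vehicle 2, 264 on RA 1 and 279 on RA 2, so both RA arrays were higher. The part of these cell types in the members' values was not tested.

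Other genes of the same pathways were read from lists drawn up by function, and 0 of 110 such genes above the filter passed in limma. Among 34 further early genes 26 were positive and 8 negative, with a median log2 change of 0.199; each RA array exceeded each vehicle array in 7 (14.1% of all genes), and both lay below in 1 (12.6%). Bhlhe40, a circadian and stress-related repressor, was the one with the smallest p, at 365 and 347 under vehicle against 579 and 554 under RA (log2 change 0.66 ± 0.19). Btg2, an antiproliferative factor, was lower on both RA arrays, at 102 and 102 against 143 and 147. RA 1 was at least 1.5 times every other array in 3 of the 34, Jdp2, Nr4a3 and Maff. Nr4a3, a relative of Nr4a1, had a signal of 300.2 on vehicle 1, 247 on vehicle 2, 647 on RA 1 and 275 on RA 2.

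Regulators upstream of the early genes were balanced in sign. Of 10 serum response factor, ETS and CREB genes 5 were positive and 5 negative, with a median of −0.004, and Mrtfa, a coactivator of serum response factor, was lower on both RA arrays, at 155 and 201 against 262 and 242. Atf7, a CREB relative, stood at 0.24 ± 0.27. Of 10 ERK, JNK and p38 kinase genes 6 were positive, with a median of 0.076; the kinase gene Braf stood at −0.38 ± 0.20 and Mapk9, which encodes a JNK, at 0.22 ± 0.19. Of 15 ERK feedback genes and other MAPK phosphatases 9 were positive, with a median of 0.0396. Etv5, an ETS factor that GDNF and FGF signalling induce in spermatogonial stem cells, gave 832 and 819.7 under vehicle against 626 and 616 under RA, a log2 change of −0.41 ± 0.19. Spry4, an inhibitor of receptor tyrosine kinase signalling, was at −0.37 ± 0.26. Both were lower on both RA arrays (12.6% of all genes). Higher on both (14.1% of all genes) were 2 others of the 15, chosen after their values were seen. They were the phosphatase genes Dusp9, at 182 and 173 under vehicle against 191 and 237 under RA, and Dusp16, at 333 and 323 against 355 and 359.8.

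Further heat shock factors, chaperones and co-chaperones were positive in 20 of 29 genes, with a median of 0.051, and 19 of the 29 were highest on RA 2 and 3 on RA 1 (26.8% and 31.6% of all genes). The part of array scale in these counts was not tested. Stip1, which links HSP70 to HSP90, had vehicle signals of 398 and 303 and RA signals of 399 and 474, a log2 change of 0.32 ± 0.22. Targets of the oxidative stress factor NRF2 and genes of haem breakdown were positive in 11 of 12 (52.9% of all genes), with a median of 0.18. Their median log2 difference from the vehicle mean was −0.0405 on RA 1 and 0.56 on RA 2. Of the 12, 8 were highest on RA 2 (26.8% of all genes). The groups were separated upwards in 3 of the 12 (14.1% of all genes). Gclm, a subunit of the enzyme that starts glutathione synthesis, was at 371 on vehicle 1, 389 on vehicle 2, 533 on RA 1 and 539 on RA 2 (log2 change 0.49 ± 0.19). Srxn1, which restores oxidised peroxiredoxins, read 556 and 760.3 in the vehicle cultures, and 906 and 1031 in the RA cultures (0.57 ± 0.23).

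With all arrays and with each left out in turn, 12 of the 32 members kept the sign of their log2 change. The share of all genes that did so was not computed, so the count cannot be set against it. Those positive were Fosl1, Fosl2, Egr1, Klf4, Myc, Zfp36, Dusp4, Hspa1b, Hsph1 and Hspb1, and those negative were Egr3 and Dusp6. These signs are by the brightest probe set, and the dimmer one of Fosl2 was at −0.21. None of these 12 members passed the test over all probe sets. For a single gene on 4 arrays, 0.33 is the smallest p that an exact permutation test, two-sided, allows.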

How the data were processed

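RNA from 4 samples of mouse THY1-enriched gonocytes, 2 with vehicle and 2 with RA, was hybridised to Affymetrix Mouse Genome 430 2.0 arrays. Per the labels, amplification by Ovation (version 2) started from 75 ng of total RNA, and GCOS 1.2 quantified the images. For each probe set and array the authors deposited 1 linear intensity; the summary and scaling of probes are not given in the sources used here. On every array the mean with 2% trimmed at each end was 125, so no further normalization was applied. Median signals were 26.6 to 29.5. The number of arrays limits the precision.

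After 64 control probe sets were left out, log2(intensity + 5) was analysed for the 27022 of 45037 probe sets whose mean log2 value reached the 40th percentile. The comparison of RA to vehicle used limma 3.58.1 (R 4.3.3; eBayes with an intensity trend, two-sided, Benjamini-Hochberg over these probe sets), with 2 residual degrees of freedom. Changes of dim genes are understated on this scale. Symbols came from the platform annotation, updated by Entrez ID to GRCm38.p6 for 34741 probe sets; 34945 named 1 gene, 932 several and 9160 none, and only the first were used. A gene was read by its brightest probe set (mean log2), which gave 13011 genes. All 32 members are named, and of each wider list the 2 genes with the smallest p; others are examples chosen after their values were seen. The members and lists were chosen with earlier results of these data known. Alternatives covered normalization, pseudocount, filter, variance model, replicate block, left-out arrays, probe set choice and type, and motif letters (added after the data were seen). The fit was tested on simulated data. Figures used matplotlib 3.10.9 in Python 3.11.15.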

Additional observations from a re-analysis of the deposited data

How the results depend on the processing

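The count of 0 members past the threshold held in limma under each alternative run except leaving out RA replicate 2, which gave 1 (Hspa1a); over the arrays left out in turn the count lay between 0 and 1. Over all probe sets it was 0 with all arrays and lay between 0 and 152 with 1 left out (1 without vehicle replicate 1, 90 without RA replicate 1 and 152 without RA replicate 2). With the replicate number as a block it was 543, 221 higher and 322 lower, with 0 members among them and 1 residual degree of freedom. At an unadjusted p under 0.05 the block gave 7 members (Fosb, Fosl1, Egr3, Myc, Zfp36, Dusp4 and Hspa1a) and 2832 of 27022 probe sets, in place of 1 member and 743 probe sets. The deviations of same-numbered arrays from their group means correlated (r = 0.53 across 27022 probe sets, which are not independent). The labels do not say that a number marks a shared source. With equal array medians the members' median was 0.25, with 29 positive and 3 negative, while 65.6% of all genes were positive; the median of all genes moved by 0.077. With 1 array left out the medians ran from 0.10 to 0.19 for all members, 0.075 to 0.27 for early genes, −0.18 to 0.29 for MAPK phosphatases and −0.0063 to 0.35 for heat shock genes. Signs turned for Klf2 with quantile normalization (0.027) and equal array medians (0.069), for Klf6 (−0.039) and Hspa8 (−0.0045) with quantile normalization and for Dnajb1 with equal array medians (0.071). The cause was not tested. The other 155 of 160 single-gene values under these settings kept their sign and side of the threshold. With 1 array left out, signs turned for 20 members, whose ranges were −0.19 to 0.24 for Fos, −0.056 to 1.10 for Fosb, −0.056 to 0.11 for Jun, −0.14 to 0.51 for Junb, −0.10 to 0.56 for Jund, −0.027 to 0.51 for Atf3, −0.35 to 0.044 for Egr2, −0.16 to 0.15 for Klf2, −0.036 to 0.17 for Klf6, −0.48 to 0.72 for Nr4a1, −0.39 to 0.46 for Ier2, −0.27 to 0.60 for Ier3, −0.035 to 0.39 for Ier5, −0.18 to 0.29 for Dusp1, −0.76 to 1.78 for Hspa1a, −0.15 to 0.13 for Dnajb1, −0.22 to 0.61 for Hspa8, −0.072 to 0.28 for Hspa4, −0.045 to 0.32 for Dnaja1 and −0.0063 to 0.64 for Hmox1. The lone array of a group was then assumed to vary like the others.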
